A study of Homo sapiens with 4 samples.

Results

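The 10 immediate early genes described here were FOS, EGR1, JUN, JUNB, IER2, CCN1, CCN2, KLF6, DUSP1 and ZFP36, out of 19974 protein-coding genes on chromosomes 1 to 22 and X in the RefSeq table of the hg38 assembly. They were followed through 4 lists of ChIP-seq peaks of γH2AX, the phosphorylated form of histone H2A.X that spreads on chromatin around DNA double-strand breaks. The cells were SK-UT1, an established human line derived from leiomyosarcoma of the uterus, a cancer of its smooth muscle. One culture received 1 µM OTS186935, an inhibitor of the histone methyltransferase SUV39H2, together with 0.5 µM doxorubicin, a topoisomerase II poison (the combination). The others received 1 µM OTS186935 alone, 0.5 µM doxorubicin alone, or 0.1% DMSO, the vehicle. All 4 came from the same line and each condition had 1 library, so there was no replicate check and no difference was tested. No exposure time is stated in the labels. A peak list holds no expression values, so the smooth muscle identity of the cells was not checked against marker genes.

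Every deposited peak that overlapped a gene body or the 5 kb on either side of it was taken. A peak interval can hold several summits, each listed on its own with a fold enrichment over local background and a −log10 q, which are the authors' values. The fragments at each summit were solved from the fold and the −log10 p, and came out whole. Their 95% intervals are exact Poisson intervals and cover counting error only. The genes were chosen by values of these same lists: an earlier reading had shown peaks near their ends in DMSO, many of them absent from treated libraries. Counts of genes with and without peaks are therefore descriptions of a choice and support nothing on their own.

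Immediate early genes are switched on within minutes of a growth factor, stress or mechanical stimulus, from factors already present in the cell such as SRF with its ELK and MRTF partners, CREB, and YAP with TEAD. They are short genes whose RNA polymerase often waits just downstream of the start. In stimulated neurons and in serum-stimulated cells, release of that polymerase has been linked to topoisomerase IIβ, to breaks in the DNA and to γH2AX at genes such as FOS and EGR1. That background says nothing on what formed the peaks in these libraries.

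Promoter sequence is shown for 5 of the genes. In all the libraries their listed peaks lay downstream of it, as did those of KLF6, IER2 and ZFP36, which are not shown. The sequences are the 250 bases before the start, from RefSeq on GRCh38.p14. They are written 5′ to 3′ on the strand of the gene, with matches to the searched motifs in capitals. FOS is at chr14:75278578-75278827, plus strand, and EGR1 at chr5:138465229-138465478, plus strand. JUN is at chr1:58784048-58784297, minus strand, CCN2 at chr6:131951373-131951622, minus strand, and DUSP1 at chr5:172771196-172771445, minus strand.
FOS: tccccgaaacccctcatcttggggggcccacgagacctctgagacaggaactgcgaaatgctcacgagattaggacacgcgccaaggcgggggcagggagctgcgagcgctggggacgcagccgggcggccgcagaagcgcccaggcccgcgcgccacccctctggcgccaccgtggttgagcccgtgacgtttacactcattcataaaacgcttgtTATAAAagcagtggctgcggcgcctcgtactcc
EGR1: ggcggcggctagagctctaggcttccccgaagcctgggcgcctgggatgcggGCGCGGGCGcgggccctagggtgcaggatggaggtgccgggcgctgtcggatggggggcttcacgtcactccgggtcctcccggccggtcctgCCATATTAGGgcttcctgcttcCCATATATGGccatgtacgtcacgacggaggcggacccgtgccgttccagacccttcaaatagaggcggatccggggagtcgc
JUN: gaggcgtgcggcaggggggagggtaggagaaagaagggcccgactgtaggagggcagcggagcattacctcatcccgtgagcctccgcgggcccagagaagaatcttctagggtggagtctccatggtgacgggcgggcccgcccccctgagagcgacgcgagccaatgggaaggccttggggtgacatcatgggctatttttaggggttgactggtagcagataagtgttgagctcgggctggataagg
CCN2: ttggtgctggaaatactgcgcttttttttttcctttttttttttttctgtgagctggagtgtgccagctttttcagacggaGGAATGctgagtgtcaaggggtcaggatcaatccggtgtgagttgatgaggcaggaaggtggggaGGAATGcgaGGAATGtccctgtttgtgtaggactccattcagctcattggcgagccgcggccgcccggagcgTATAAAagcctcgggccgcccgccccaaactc
DUSP1: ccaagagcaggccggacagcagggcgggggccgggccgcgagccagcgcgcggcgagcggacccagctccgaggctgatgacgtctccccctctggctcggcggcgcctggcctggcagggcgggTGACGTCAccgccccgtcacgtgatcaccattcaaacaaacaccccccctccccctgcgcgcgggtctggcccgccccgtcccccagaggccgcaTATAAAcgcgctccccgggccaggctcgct

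The capitals mark 6 motifs searched on both strands in the window from 250 bases before to 50 after the start. EGR1 held 2 CArG boxes, the element read by SRF, ending 96 and 74 bases before the start, where 1.21% of 15812 promoters held 1 or more. It also held GCGNGGGCG, the element of the EGR factors themselves, as did KLF6, against 12.6% of promoters. CCN2 held CATTCC, the TEAD element, at 3 places, all on the opposite strand and so printed as GGAATG, and ZFP36 held it once, against 11.7%. DUSP1 held the CREB element TGACGTCA at 125 to 118 bases before the start, against 2.59% of promoters. TATAAA lay 25 to 33 bases before the start in FOS, JUNB, CCN2 and DUSP1, against 9.64%. TGANTCA, the AP-1 element, was in none of the 9 windows, against 5.76% of promoters. None of these motifs overlapped another in the 9 windows. CCN1 had no entry in the promoter table. The 9 windows were 54.3% to 74.7% G and C with a median of 69.7%, and the median over all promoters was 62.7%.

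No peak of any library overlapped 1 of these 9 promoter windows. Over all 15812 promoters in the table, 5.21% were overlapped by a peak with the combination, 9.92% with OTS186935, 7.04% with doxorubicin and 14.3% with DMSO. In DMSO the first peak began 83 bases after the start of CCN2, 113 after that of KLF6, 131 after that of FOS, 143 after that of JUN and 171 after that of JUNB. It began 187 bases after the start of DUSP1, 379 after that of EGR1, 765 after that of ZFP36 and 2885 after that of IER2.

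**Figure D1:**
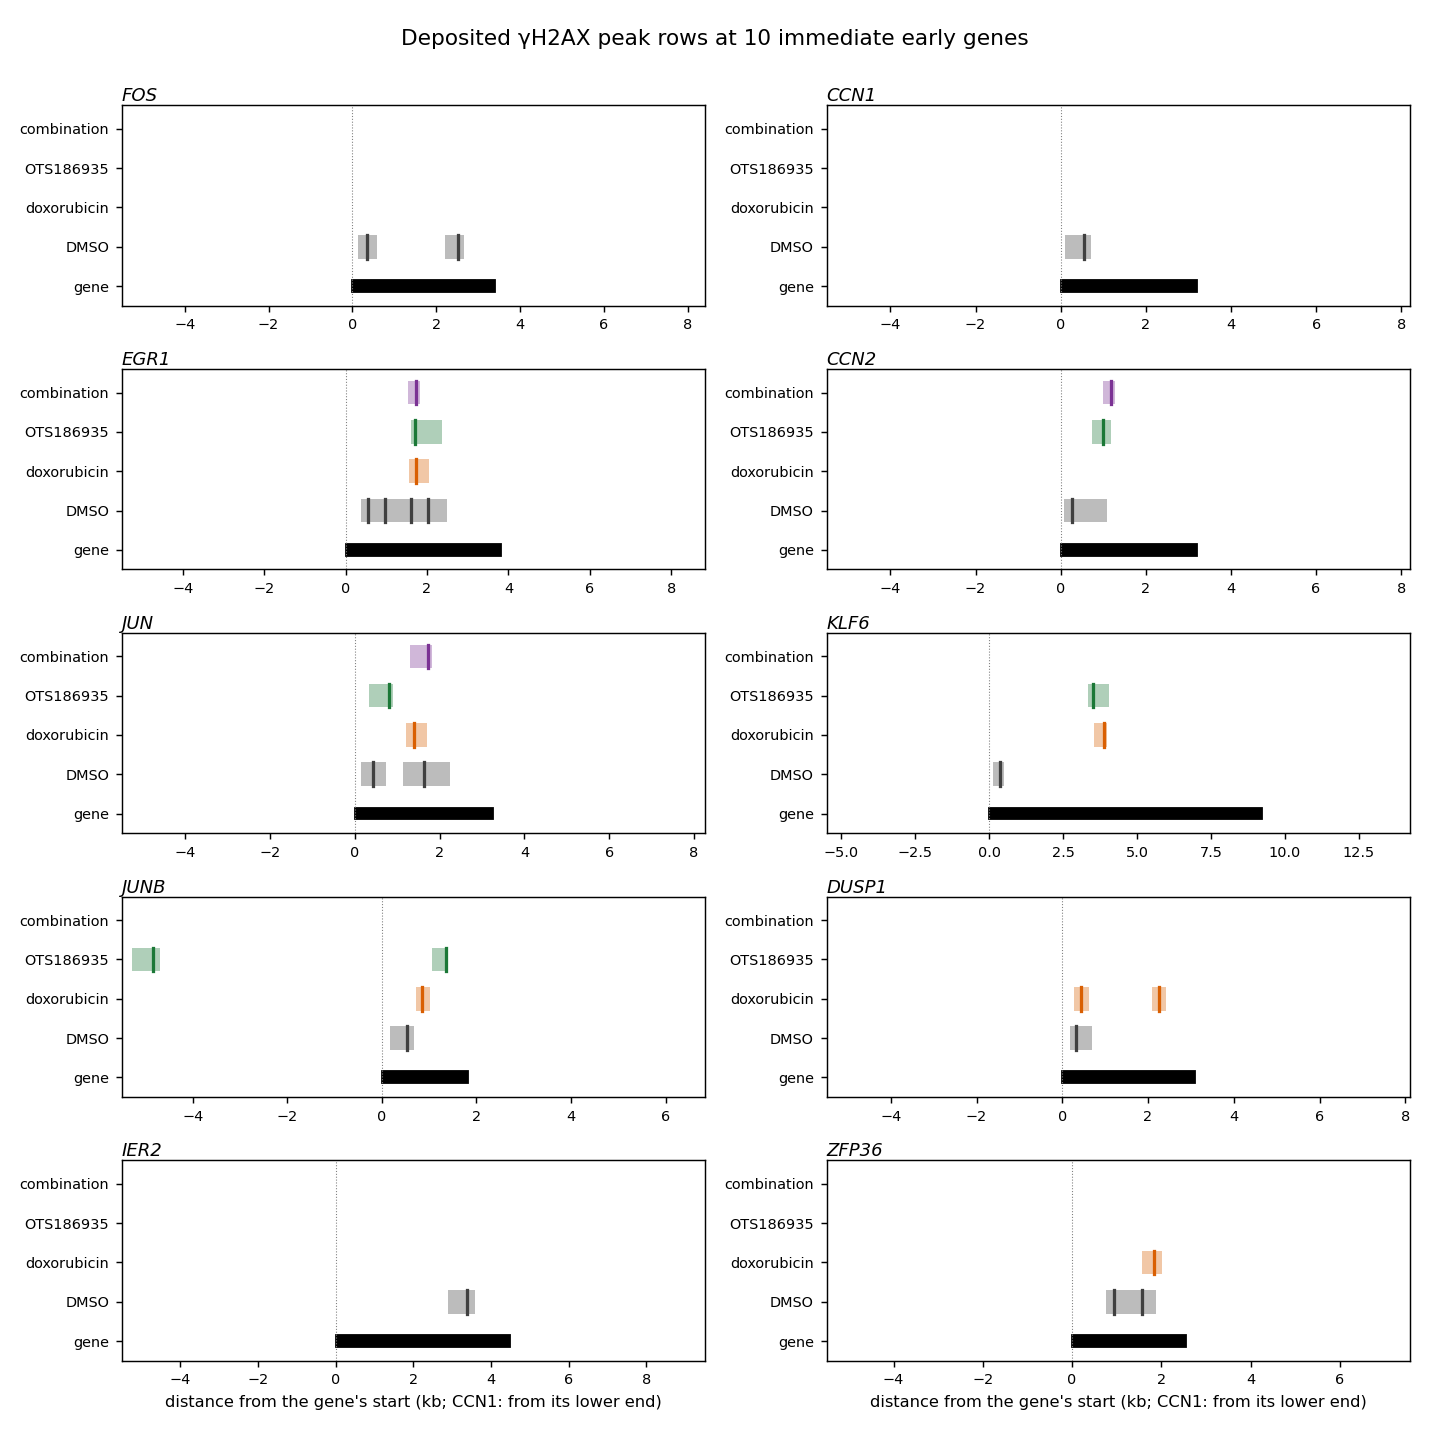
Deposited peaks at each gene by library, with distance from the gene's start in kb on the x axis (for CCN1 from the end with the lower coordinate; the KLF6 scale is wider). Pale bars are peak intervals, dark ticks are summits and the black bar is the gene body; 31 of 32 summits lay inside the bodies, and EGR1 and JUN had peaks in every library.

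Peaks at the 10 genes numbered fewest with both drugs and most with the vehicle. Genes with a peak were 3 of 10 with the combination (EGR1, JUN and CCN2) and 5 of 10 with OTS186935 (EGR1, JUN, JUNB, CCN2 and KLF6). They were 6 of 10 with doxorubicin (EGR1, JUN, JUNB, KLF6, DUSP1 and ZFP36) and 10 of 10 with DMSO. The 10 genes are 1830 to 9214 bp long, and of 5276 coding genes no longer than KLF6, the longest, 32.0% had a peak with the combination, 53.7% with OTS186935, 44.4% with doxorubicin and 61.9% with DMSO. Of all coding genes, whose longer bodies hold more peaks, the shares were 50.5%, 71.7%, 65.1% and 78.3% in the same order. The choice of genes used these lists, so nothing is read from the distance between its counts and those shares. The lists differ in length, with 29619 summits with the combination, 62008 with OTS186935, 48594 with doxorubicin and 76870 with DMSO. Cut to the 29619 summits of highest −log10 p in each, they held a peak at 3, 3, 3 and 6 of the 10 genes in that order.

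Of genes with a DMSO peak, 7 of 10 had none with the combination, 5 of 10 none with OTS186935 and 4 of 10 none with doxorubicin. Over the shorter coding genes with a DMSO peak those shares were 53.2%, 25.4% and 37.6%, and over all coding genes 38.8%, 15.2% and 22.7%. The choice of genes used these contrasts, so nothing is read from them. Set against the single drugs, the combination lacked a peak at 4 of the 6 genes with a doxorubicin peak and at 2 of the 5 genes with an OTS186935 peak. Over the shorter coding genes those shares were 47.6% and 50.4%, and over all coding genes 33.9% and 36.1%. CCN2 was the gene of the 10 with a peak in the combination and none with doxorubicin.

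In all, the lists held 32 summits at the 10 genes, in 28 peak intervals. There were 3 summits with the combination, 6 with OTS186935, 7 with doxorubicin and 16 with DMSO. Fold enrichment ranged from 3.32 to 4.44 with the combination, 3.05 to 7.16 with OTS186935, 2.98 to 5.26 with doxorubicin and 2.53 to 5.46 with DMSO. These folds were unremarkable for the lists: the median over all summits was 4.2, 4.3, 4.09 and 4.22 in that order, and the 90th percentile was 5.87, 6.19, 5.76 and 6.51. At the 10 genes, CCN2 with OTS186935 gave the one fold above the 90th percentile of its list.

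FOS encodes a subunit of the AP-1 transcription factor and spans chr14:75278828-75282230, plus strand. It had no listed peak with the combination, OTS186935 or doxorubicin, and 2 with DMSO. The first DMSO summit lay 346 bases after the start with 21 fragments (95% interval 13.0 to 32.1), a 5.46-fold enrichment and a −log10 q of 8.07. Both the fragment count and the −log10 q were the highest of the 32 summits. The second lay 2512 bases after the start and 890 bases before the gene's other end, with 14 fragments and 3.72-fold. At the DMSO library's local background, scaled to each library's depth, a summit of 9 fragments would have been listed in each treated library. On that background up to 8 fragments would have gone unlisted. The treated backgrounds at FOS are not known, and lower ones would ask for fewer fragments. At JUN the same reckoning asked for 8 with OTS186935, and a summit of 5 was listed. The nearest listed peaks outside the window were 27.5 kb from the gene with the combination, 27.4 kb with OTS186935, 28.5 kb with doxorubicin and 19.8 kb with DMSO.

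JUN, the partner of FOS in AP-1, spans chr1:58780791-58784047, minus strand, and had a peak in all the libraries. Its summit had 7 fragments with the combination (2.81 to 14.4; 4.44-fold), 5 with OTS186935 (1.62 to 11.7; 3.15-fold), 9 with doxorubicin (4.12 to 17.1; 5.26-fold), and 13 and 12 with DMSO (6.92 to 22.2 and 6.2 to 21.0; 3.84-fold and 3.56-fold). The 4 libraries' intervals overlap, so summit counts at this depth did not separate them. The sites did not all coincide. The combination and doxorubicin summits, 1716 and 1398 bases after the start, lay under the inner DMSO peak, whose summit was at 1631. The OTS186935 summit at 808 belonged with the outer DMSO peak at 436, and did not overlap the combination or doxorubicin peaks.

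JUNB, another AP-1 subunit, spans chr19:12791486-12793315, plus strand, and its first part lies under the annotated extent of the neighbouring gene HOOK2. It had no listed peak with the combination. With OTS186935 it had 12 fragments at position -4841 from the start, inside HOOK2, and 7 fragments (2.81 to 14.4; 3.05-fold) 1355 bases after the start. The first of these 2 lay just inside the 5 kb limit. Doxorubicin gave 9 fragments at 840 bases (4.12 to 17.1; 4.58-fold) and DMSO 16 at 538 bases (9.15 to 26.0; 4.05-fold), both within HOOK2 as well as JUNB. None of these 4 peaks overlapped another: the doxorubicin peak began 49 bases beyond the DMSO peak, and the nearer OTS186935 peak 37 bases beyond that.

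EGR1, a zinc finger transcription factor, spans chr5:138465479-138469303, plus strand, and had its most coincident site in the middle of the gene. The summits lay 1730 bases after the start with the combination, 1707 with OTS186935, 1722 with doxorubicin and 1605 with DMSO. Fragments at that site were 12 with the combination (6.2 to 21.0; 4.35-fold), 10 with OTS186935 (4.8 to 18.4; 3.32-fold), 9 with doxorubicin (4.12 to 17.1; 3.4-fold) and 19 with DMSO (11.4 to 29.7; 4.19-fold). The treated summits thus fell within 23 bases of each other. In DMSO this site was 1 of 4 summits in a single interval of 2115 bp, and the others, at 538, 977 and 2019 bases, had 11, 19 and 13 fragments. No treated library had a listed summit at the DMSO sites nearer the start. At the DMSO background scaled to depth, 10 or 11 fragments would have been needed there. The background at the listed treated summits of EGR1 was lower, so fewer may have been enough. With doxorubicin a summit of 9 was listed.

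KLF6, a zinc finger factor of the Krüppel-like family, spans chr10:3775996-3785209, minus strand, and its peaks lay at different places in different libraries. It had none listed with the combination. OTS186935 had 11 fragments 3508 bases after the start (5.49 to 19.7; 5.46-fold) and doxorubicin 4 at 3881 bases (1.09 to 10.2; 2.98-fold), in overlapping peaks. DMSO had 8 at 359 bases (3.45 to 15.8; 3.31-fold), 2860 bp or more from both. The doxorubicin peak, with a −log10 q of 1.05, was the one nearest the lists' lowest value of 1.0. IER2, a nuclear protein of the immediate early response family, spans chr19:13150411-13154911, plus strand, and had 1 peak, in DMSO, with 18 fragments (10.7 to 28.4; 4.12-fold). Its summit lay toward the far end of the gene, 3391 bases after the start and 1109 before the other end, as did that of the second FOS peak. Just outside its 5 kb limit, each library had a peak inside STX10, at 5.53 kb with the combination (4.54-fold), 5.38 kb with OTS186935 (3.84-fold), 5.47 kb with doxorubicin (3.29-fold) and 5.48 kb with DMSO (5.38-fold).

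CCN1 and CCN2 encode secreted matrix-associated proteins and are known targets of YAP and TEAD. CCN1, at chr1:85580761-85583950, had no listed peak in a treated library and 10 fragments with DMSO (4.8 to 18.4; 4.77-fold), 547 bases from its lower end. CCN2, at chr6:131948176-131951372 on the minus strand and inside the long noncoding gene CCN2-AS1, had none with doxorubicin. Its summit had 4 fragments with the combination (1.09 to 10.2; 3.32-fold), 9 with OTS186935 (4.12 to 17.1; 7.16-fold) and 7 with DMSO (2.81 to 14.4; 5.01-fold). CCN2 and KLF6 were the genes whose OTS186935 summit had more fragments than any DMSO summit of the same gene, and in both the intervals overlap. The summits lay at 1181, 982 and 262 bases after the start of CCN2 in that order, and both treated peaks overlapped the DMSO peak.

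DUSP1 and ZFP36 act to end the response: DUSP1 removes phosphate from MAP kinases, and ZFP36 binds AU-rich messenger RNA and speeds its decay. Of the treated libraries, doxorubicin alone had listed peaks at them. DUSP1, at chr5:172768096-172771195 on the minus strand, had 6 fragments at each of 2 doxorubicin summits (2.2 to 13.1; 3.37-fold and 3.46-fold), 442 and 2249 bases after the start. With DMSO it had 9 (4.12 to 17.1; 4.1-fold) at 310 bases, and the nearer doxorubicin peak overlapped it. ZFP36, at chr19:39406847-39409407 on the plus strand, had 8 fragments with doxorubicin at 1838 bases (3.45 to 15.8; 3.84-fold). Its DMSO interval of 1109 bp held 18 fragments at 947 bases and 19 at 1569 bases (11.4 to 29.7; 4.05-fold), and overlapped the doxorubicin peak. OTS186935 had a peak 5.6 kb from ZFP36, just outside the limit and inside PLEKHG2.

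**Figure D2:**
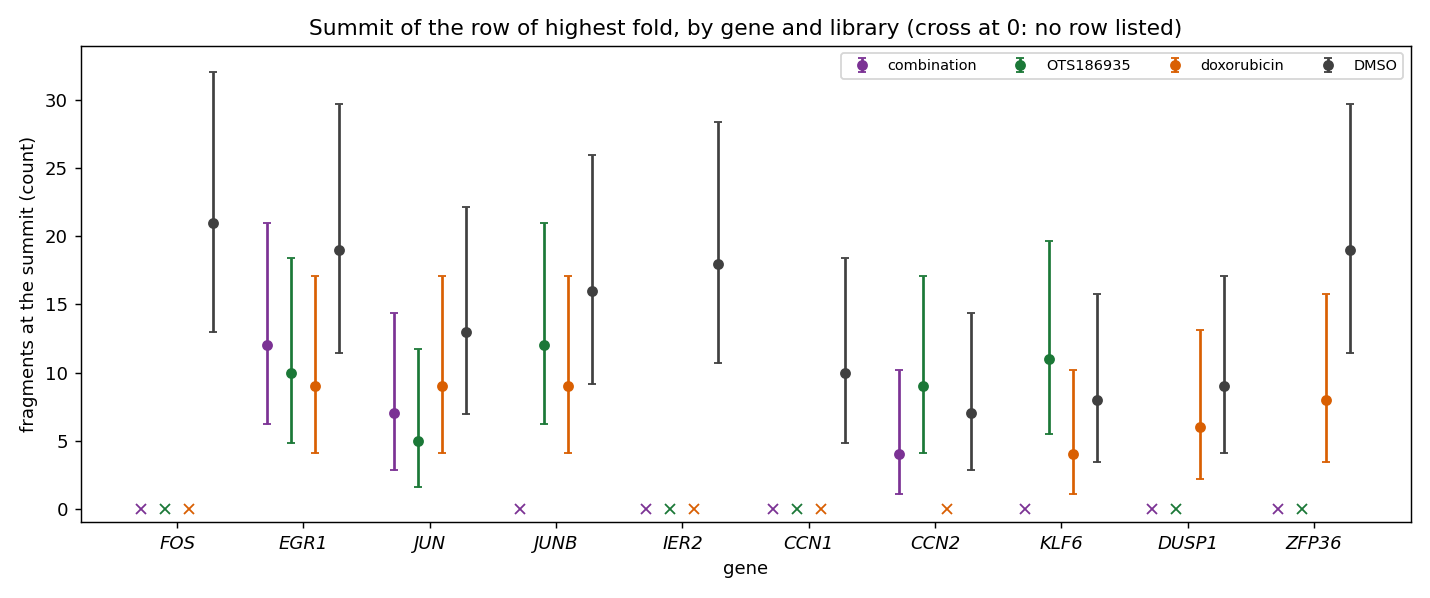
Fragments at the summit of highest fold for each gene and library (y axis, count), with exact Poisson 95% intervals as bars; a cross at 0 marks a library with no listed peak, not a count of 0. DMSO summits held 7 to 21 fragments, and where a treated library had a peak its interval overlapped that of DMSO.

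The background that the peak caller set beside each summit gave a second, wider measurement. It moved in whole steps of 1 fragment end per 10 kb, so it could be read as the number of fragments in the 10 kb around a summit. That reading assumes a background taken from the same library and not from an input, which the processing notes do not state. Where fewer fragments were present than the genome-wide level, the caller used that level, 14.4 fragments per 10 kb with the combination, 12.3 with OTS186935, 13.2 with doxorubicin and 13.7 with DMSO. The 10 kb value exists for listed summits alone and includes the peak itself. It was not part of the rule that picked the genes, but the peak call and the choice of genes with DMSO peaks bear on it, so it is given as a description.

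Around JUN there were 27.0 fragments per 10 kb with the combination (17.8 to 39.3), 28.0 with OTS186935 (18.6 to 40.5), 30.5 with doxorubicin (20.7 to 43.4) and 80.0 with DMSO (63.4 to 99.6). Around EGR1 there were 67.0 with the combination (51.9 to 85.1), 71.5 with OTS186935 (55.9 to 90.1), 65.5 with doxorubicin (50.6 to 83.4) and 113 with DMSO (93.1 to 136). At both genes, each treated library lay under DMSO with no overlap of counting intervals, while the treated libraries overlapped one another. These counts are not scaled to depth, and the genome-wide level was 12.3 with OTS186935 and 13.7 with DMSO. Scaled by those levels, the EGR1 intervals of OTS186935 and DMSO would overlap. JUNB had 50.5 with OTS186935 (37.5 to 66.5) at the summit of highest fold, 40.0 with doxorubicin (28.6 to 54.5) and 96.5 with DMSO (78.2 to 118). ZFP36 had 45.5 with doxorubicin (33.3 to 60.8) and 119 with DMSO (98.6 to 142). At JUNB and ZFP36 the intervals of treated libraries and DMSO again did not overlap.

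KLF6 had 37 fragments per 10 kb with OTS186935 (26.1 to 51.0), 23 with doxorubicin (14.6 to 34.5) and 52 with DMSO (38.8 to 68.2), around summits 3149 and 3522 bp from the DMSO one. There the doxorubicin interval lay under that of DMSO without overlap, and the OTS186935 interval overlapped it. At DUSP1 and CCN2 the intervals overlapped. DUSP1 had 34.5 with doxorubicin (24.0 to 48.1) at the summit of highest fold and 43.5 with DMSO (31.5 to 58.5). CCN2 had 17 with the combination (9.9 to 27.2), at most the genome-wide level with OTS186935 and 18 with DMSO (10.7 to 28.5). The genes with a DMSO peak alone had 91.5 at FOS (73.7 to 112), 109 at IER2 (89.5 to 132) and 39.5 at CCN1 (28.2 to 53.9).

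**Figure D3:**
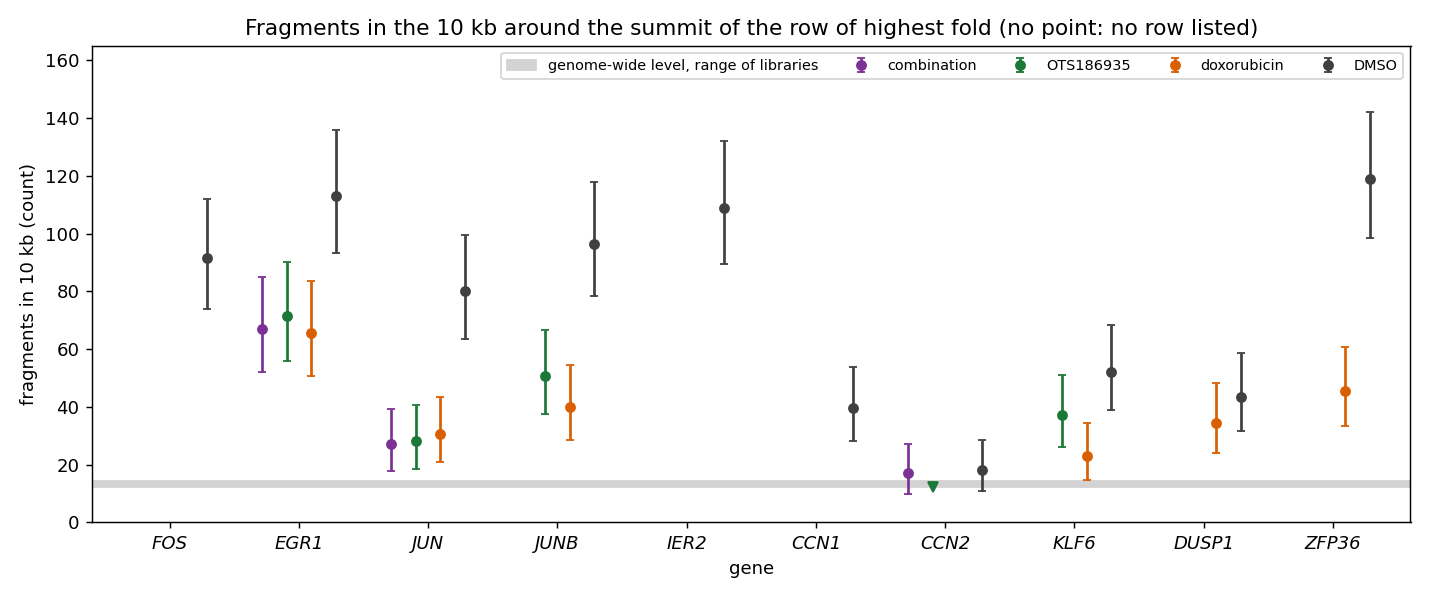
Fragments in the 10 kb around the summit of highest fold (y axis, count) for each gene and library, with Poisson 95% intervals; the grey band is the genome-wide level of the 4 libraries, 12.3 to 14.4, and the triangle is a value at or under it. DMSO lay above the treated libraries without overlap at EGR1, JUN, JUNB and ZFP36, and above doxorubicin at KLF6. Counts are not scaled to depth, and with that scaling the EGR1 intervals of OTS186935 and DMSO would overlap.

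Relative to each library's own genome-wide level, EGR1 stood at 4.64 times with the combination, 5.83 with OTS186935, 4.98 with doxorubicin and 8.24 with DMSO. JUN stood at 1.87, 2.28, 2.32 and 5.84 times in the same order. CCN2 with OTS186935 stood at the genome-wide level itself, 1.0 times, against 1.31 with DMSO. The choice of genes with DMSO peaks favours a higher DMSO value, so nothing is read from the counts and medians that follow. Each immediate early gene with a peak in both libraries had a lower relative level in the treated library: 3 of 3 with the combination, 5 of 5 with OTS186935 and 6 of 6 with doxorubicin. Among the shorter coding genes with a peak in both, 70.5%, 54.5% and 66.7% were lower in that order, and among all coding genes 51.8%, 46.9% and 49.6%. Here and below, a gene at the genome-wide level in both libraries was a tie and counted as not lower, which holds these shares down. The 10th percentile of the relative level in DMSO was 1.0 over the shorter and over all coding genes. The median log2 difference of treated minus DMSO was -0.83 with the combination, -0.5 with OTS186935 and -1.16 with doxorubicin over the immediate early genes, and -0.31, -0.04 and -0.19 over the shorter coding genes. From the 10th to the 90th percentile, the shorter coding genes ran from -0.96 to 0.42 with the combination, -0.56 to 0.47 with OTS186935 and -0.73 to 0.41 with doxorubicin. In DMSO the median relative level was 6.26 times over the 10 genes and 3.57 over the shorter coding genes with a peak, whose 90th percentile was 10.8.

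The summits lay downstream of the start, with the exception of the upstream JUNB summit with OTS186935. Nearness of DMSO peaks to gene ends helped to choose the genes, so the distances are a description and nothing is read from them against the other genes. With the gene's start known for 9 of the 10, 9 of 15 DMSO summits lay within 1 kb of it, at 8 genes, and all 9 were on the downstream side. The same distance held 0 of 3 summits with the combination, 2 of 6 with OTS186935 and 2 of 7 with doxorubicin. Over 15812 coding genes, 9.88% had a summit within 1 kb of the start with the combination, 18.5% with OTS186935, 14.0% with doxorubicin and 27.7% with DMSO. Of those summits, 68.1%, 70.3%, 69.5% and 72.4% were downstream. The median distance of body summits from the start was 1716 bases with the combination (3 summits), 1355 with OTS186935 (5), 1722 with doxorubicin (7) and 947 with DMSO (15).

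In the windows of the 10 genes, 31 of 32 summits lay in the gene bodies, which make up 27.6% of the windows. These positions, too, come from the lists that chose the genes. In the windows of the shorter coding genes, 51.4% of summits lay in the bodies with the combination, 50.4% with OTS186935, 50.9% with doxorubicin and 50.8% with DMSO, where bodies make up 30.2%. All 3 combination peaks, those of 3 of 5 genes with OTS186935 and those of 4 of 6 with doxorubicin overlapped a DMSO peak of the same gene, the exceptions being JUNB and KLF6 in both single-drug libraries. Of the shorter coding genes with a peak in both, 80.9% had an overlap with the combination, 85.0% with OTS186935 and 81.4% with doxorubicin, and of all coding genes 76.8%, 83.2% and 79.3%. OTS186935 and doxorubicin peaks overlapped at 2 of 4 genes with both (EGR1 and KLF6, not JUN and JUNB), against 79.8% of the shorter and 76.7% of all coding genes. With 3 to 6 genes a pair, no difference from those shares is read.

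**Figure D4:**
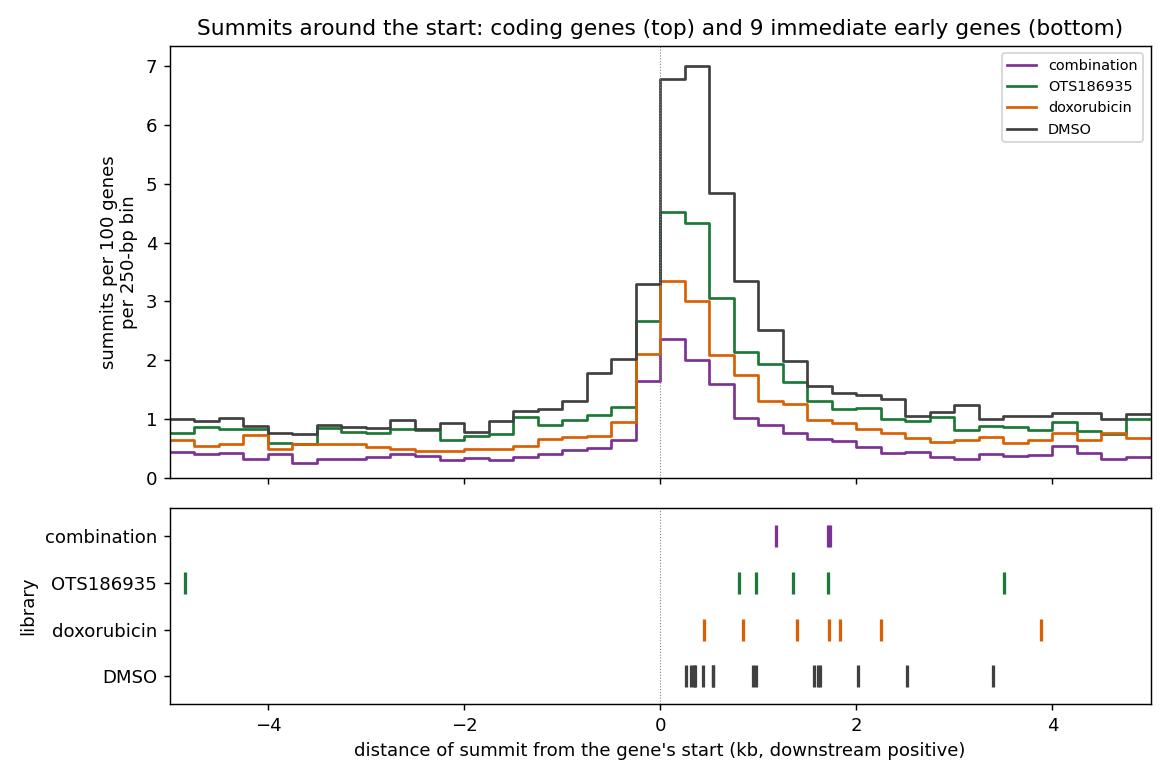
Summits around gene starts, with distance from the start in kb on the x axis, downstream positive. The top panel gives summits per 100 genes in bins of 250 bp over 15812 coding genes, and the ticks below are the single summits of the 9 immediate early genes with a known start; the DMSO profile was highest from 250 to 500 bp downstream, at 7.01 per 100 genes.

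A list of 53 further genes of this kind, put together with earlier results of these data known, had a peak at 22 with the combination, 40 with OTS186935, 31 with doxorubicin and 44 with DMSO. These are 41.5%, 75.5%, 58.5% and 83.0%, beside 50.5%, 71.7%, 65.1% and 78.3% of all coding genes. Peaks in all the libraries were present at 17 of 53, against 2 of 10 of the genes described above and 19.9% of the shorter and 39.7% of all coding genes, and a peak in DMSO alone at 2 of 53, against 3 of 10, 7.81% and 4.96%. Length was not matched between the lists. Folds for genes of this list and the next are the highest in each window, so they can come from different places in different libraries. ATF3, GADD45A, CSRNP1 and DUSP4 are the 4 of highest DMSO fold, a choice that favours a DMSO value above the treated ones. In fold, ATF3, a stress-induced factor, had no combination peak, 6.63 with OTS186935, 5.88 with doxorubicin and 6.51 with DMSO. GADD45A, a growth arrest gene, had no combination peak, 3.38 with OTS186935, 3.77 with doxorubicin and 6.26 with DMSO. CSRNP1 had 3.08 with the combination, 4.73 with OTS186935, no peak with doxorubicin and 6.43 with DMSO. DUSP4, a MAP kinase phosphatase gene related to DUSP1, had a peak in every library, with 4.14 with the combination, 7.28 with OTS186935, 4.64 with doxorubicin and 6.36 with DMSO. The relative 10 kb level was lower than with DMSO at 18 of 22 genes of this list with the combination, 27 of 38 with OTS186935 and 23 of 27 with doxorubicin, counting genes with a peak in both libraries. These are 81.8%, 71.1% and 85.2%, beside 70.5%, 54.5% and 66.7% of the shorter coding genes. Among all coding genes the shares were 51.8%, 46.9% and 49.6%, and no difference was tested.

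Genes of the further list with a peak in every library included RHOB, a small GTPase gene as short as the 10, with 4.84-fold with the combination, 6.77 with OTS186935, 5.42 with doxorubicin and 5.21 with DMSO. NR4A2, a nuclear receptor, had 4.58, 5.38, 5.07 and 4.54 in that order. TNFAIP3, a brake on NF-κB signalling, had 4.84, 4.2, 6.17 and 5.01, and THBS1, a matrix glycoprotein, had 5.48, 5.0, 4.24 and 4.24. SGK1, a kinase, had 4.72, 5.73, 4.95 and 5.7. At RHOB, TNFAIP3 and SGK1 the treated folds lay on both sides of the DMSO value, and at NR4A2 and THBS1 none lay under it. These genes were picked for a high lowest fold over the libraries, as were YAP1 and MAPK9 of the next list. That choice favours high treated folds, so nothing is read from their place beside DMSO. SGK1 spans 148857 bp with 2, 5, 2 and 9 summits in its window, and its 5.73 and 5.7 hardly differ. These folds are not tied to a shared site.

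A second list held 29 genes that act on immediate early genes, among them SRF, which is also in the first list. A peak was listed at 21 with the combination, 24 with OTS186935, 23 with doxorubicin and 28 with DMSO, and at 16 in all the libraries. These are 72.4%, 82.8%, 79.3%, 96.6% and 55.2%, beside 50.5%, 71.7%, 65.1%, 78.3% and 39.7% of all coding genes. Many of the regulators are long genes, such as TEAD1 at 270317 bp, and length was not matched, so nothing is read from the counts. WWTR1, TEAD1, MRTFA and CREBBP are the 4 of highest DMSO fold, a choice that favours a DMSO value above the treated ones. The YAP and TEAD arm acts on CCN1 and CCN2. In it WWTR1 had 4.57-fold with the combination, 7.16 with OTS186935, 4.89 with doxorubicin and 7.35 with DMSO. YAP1 had 5.27, 4.3, 4.32 and 4.96 in that order, TEAD3 2.99, 4.42, 3.69 and 6.02, and TEAD4 5.83, 5.94, 4.07 and 5.37. TEAD2 had a peak with DMSO alone, at 6.28-fold. TEAD1 had no combination peak, 7.16 with OTS186935, 6.79 with doxorubicin and 8.25 with DMSO. The SRF cofactor gene MRTFA had 5.6 with the combination, 5.73 with OTS186935, no peak with doxorubicin and 7.19 with DMSO. CREBBP, a coactivator of CREB, had 5.76, 8.45, 5.04 and 7.58, and the kinase gene MAPK9 had 4.23, 4.81, 4.68 and 7.08, in the order combination, OTS186935, doxorubicin and DMSO. The relative 10 kb level was lower than with DMSO at 6 of 21 genes with peaks in both for the combination, 12 of 23 for OTS186935 and 10 of 23 for doxorubicin, beside 51.8%, 46.9% and 49.6% of all coding genes. The difference between the lists was not tested.

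**Figure D5:**
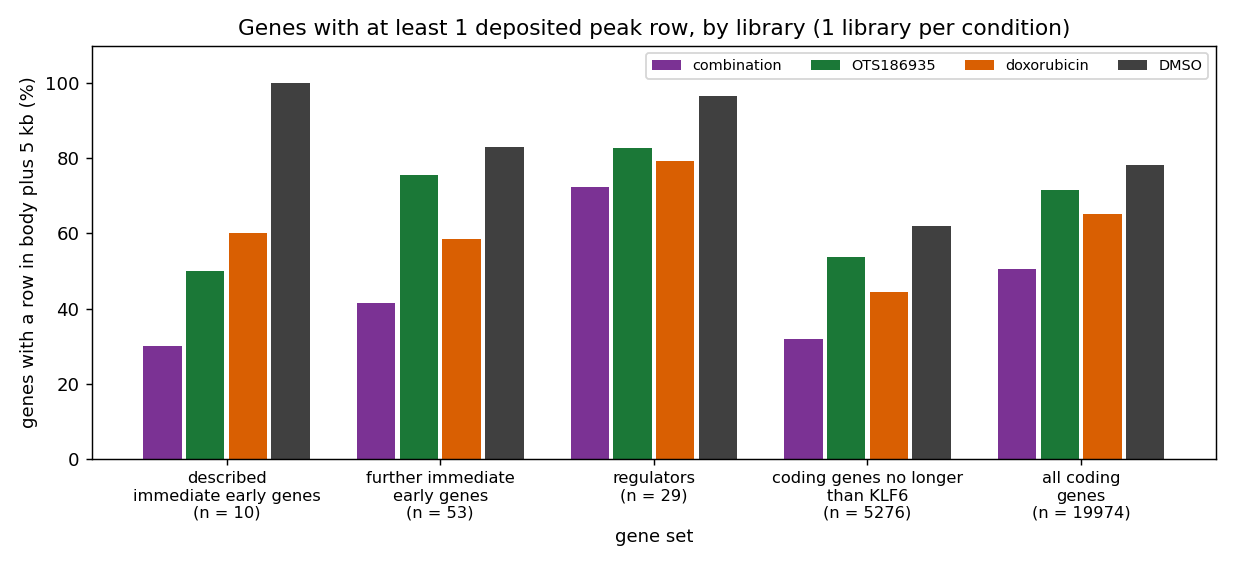
Percent of genes with at least 1 deposited peak in the body plus 5 kb (y axis) by gene set and library, with 1 library per condition and no error bars for that reason. The 10 described genes ran from 30% with the combination to 100% with DMSO, and the coding genes no longer than KLF6 from 32.0% to 61.9%.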

How the data were processed

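γH2AX ChIP-seq was analysed in 4 libraries. Chromatin was fixed with formaldehyde, sheared by sonication and enriched with an anti-γH2AX antibody, and sequencing libraries were built with a ThruPLEX kit, as the labels' protocols state. MACS2 2.2.7.1, bedtools 2.30.0, Picard 2.25.3 and Bowtie2 2.4.2 are listed in the submitters' processing notes, with the hg38 build, but not what each one did. Read filters, peak-calling settings and use of an input are not stated there. The deposited lists, 1 per library, give per summit a fold (a ratio over local background), a −log10 p, a −log10 q and a score (10 × −log10 q without its decimals). They held 29619 rows with the combination, 62008 with OTS186935, 48594 with doxorubicin and 76870 with DMSO.

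Pileup and background were solved from fold, taken as pileup + 1 over background + 1, and a Poisson −log10 p. A whole pileup matched within 0.002 for 100% of rows. A second whole pileup also matched in 1402, 2109, 423 and 576 rows in that order, none at these genes. Background above its floor gave whole fragment ends per 10 kb within 0.05 for 100% of rows, at a fragment length of 296.3, 323.8, 295.7 and 331.2 bp that was fitted to it. Depth is not stated, and the floor, 0.428, 0.397, 0.389 and 0.454 fragments per position, was used to scale it. Genes and promoters came from RefSeq tables (GRCh38.p14), and starts were known for 15812 of 19974 coding genes. Peaks were called shared when they overlapped by 1 bp or more. The genes, both gene lists and the 5 comparisons were chosen with earlier results of these data known. Named list genes were the 4 of highest DMSO fold and up to 5 with peaks in all libraries, by their lowest fold, with values printed for most of them. TEAD2, TEAD3 and TEAD4 were added to give the rest of the YAP and TEAD arm. The 10 kb counts were added after the values were seen. Alternatives tried were other windows, a stricter limit on −log10 q, lists of equal length, merged summits and a demand for overlap. Solver and overlap code were tested on simulated data. Python 3.11.15, numpy 2.4.6, pandas 2.3.3, scipy 1.17.1 and matplotlib 3.10.9 were used.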

Additional observations from a re-analysis of the deposited data

How the results depend on the processing

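With 1 library per condition, leaving out replicates was not possible. No paired analysis was possible because each group has 1 library. Counts below run combination, OTS186935, doxorubicin, DMSO. Under a limit of 5 on the −log10 q, peaks were present at 0, 2, 0 and 4 of the 10 genes (0, 2, 0 and 5 summits), at 0, 9, 2 and 12 further immediate early genes and at 1, 8, 5 and 16 regulators. Genes with a DMSO peak and none in a treated library then numbered 4 with the combination, 4 with OTS186935 and 4 with doxorubicin. Those with a doxorubicin peak and none with the combination numbered 0. Within 1 kb of either gene end, 1, 3, 3 and 10 of the 10 genes had a peak. So did 4, 17, 12 and 25 further genes and 8, 8, 7 and 13 regulators. Genes with a DMSO peak and none in a treated library then numbered 9, 7 and 7. With lists cut to 29619 rows each by −log10 p, 3, 3, 3 and 6 of the 10 genes had a peak (3, 3, 3 and 8 summits). Genes with a DMSO peak and none in a treated library then numbered 5, 5 and 4. There were 2 genes with a doxorubicin peak and none with the combination. At that length 22, 19, 25 and 22 further genes and 21, 15, 19 and 23 regulators had a peak. So the order of the libraries did not hold at equal length in the further list or among the regulators. At the 10 genes the treated libraries were then level, at 3 each, under DMSO at 6. With windows of 500 bp, 0, 0, 1 and 5 summits lay near the start, and with 2.5 kb, 3, 4, 6 and 13. Windows of 1 kb around the body, merging of overlapping rows and asking for overlapping peaks changed no count by over 1.5 times. With overlap asked for, genes with a DMSO peak and none in a treated library still moved to 7, 7 and 6, from 7, 5 and 4. The treated libraries were then nearly level. Genes with an OTS186935 peak and none with the combination moved from 2 to 3. Depth limits what a missing peak means, since the summits here held 4 to 21 fragments.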
